A study of Mus musculus with 36 samples.

Results

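The acid secretion machinery is the set of genes with which a bone-resorbing osteoclast dissolves mineral. Its members were named by symbol, and it holds 31 of the 30205 genes that had a transcript in the deposited tables. The 31 genes are the 2 subunit isoforms of the vacuolar H+-ATPase (V-ATPase) that are known from osteoclasts, 14 ubiquitous V-ATPase subunits, 7 tissue-restricted subunit isoforms, 2 accessory subunits and 6 partners that carry chloride, bicarbonate or vesicles. All 31 genes were found in the tables.

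The V-ATPase is a rotary proton pump. Its cytosolic V1 sector hydrolyses ATP and turns a ring of proteolipid subunits in the membrane-bound V0 sector, beside which the a subunit guides protons across the membrane. In an osteoclast, lysosome-related vesicles that carry the pump fuse with the membrane facing bone to form the ruffled border. Carbonic anhydrase 2 supplies the protons, the chloride-proton exchanger CLC-7 balances their charge, and the anion exchanger AE2 returns bicarbonate to the other side of the cell. Loss of several of these genes is known to cause osteopetrosis, in which bone is not resorbed.

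Total RNA was sequenced from 3 kinds of primary culture, each from wild-type (WT) control and Mir324-null mice of 20 weeks. Mir324 encodes a microRNA, and the series was made to ask how its loss alters osteoblasts and osteoclasts. Bone marrow macrophages (BMM) were kept for 5 days in 30 ng/mL M-CSF, a growth factor for the macrophage lineage. Cultures labelled osteoclasts (OC) received the same for 5 days plus 50 ng/mL RANK-L, the cytokine that drives osteoclast formation. Cultures labelled osteoblasts (OB) grew out of bone chips and were held for 18 days in osteogenic medium with 2 mM beta-glycerophosphate and 50 µg/mL ascorbic acid. There were 6 libraries in each of the 6 groups, 36 in all. The labels do not say how the null allele was made, and they name no batches, so genotype and any batch of culture cannot be told apart. They also do not say whether the 6 libraries of a group came from separate mice, so p-values measure the spread between these libraries.

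Library totals ran from 14118972 to 26347581 estimated counts. Over 8 osteoclast marker genes (among them Ctsk, Acp5 and Calcr), the summed level was 30200 to 34430 TPM (a transcript level scaled to transcript length and to a fixed total per library) in WT OC and 218.2 to 548.6 TPM in null OC. It was 20.98 to 26.9 TPM in WT BMM and 139.8 to 180.4 TPM in null BMM, and Calcr was listed at 0 in both and in null OC. Of the 5 tested between the BMM groups, Mmp9 and Acp5 were higher in null BMM, at 90.35 to 131.6 and 35.2 to 51.13 TPM, while Ctsk and Itgb3 were lower (log2 fold changes of -0.96 and -1.29), and the median was 0.05. The OB cultures held the same markers at 3995 to 5038 TPM in WT and 5208 to 7885 TPM in null, beside 26010 to 37230 and 43520 to 56890 TPM of 8 osteoblast markers. Over 8 macrophage markers, none at 0 in a whole group, the sum was 5999 to 6345 TPM in WT BMM, 6218 to 8181 in null BMM, 4353 to 5307 in WT OC, 6297 to 7588 in null OC, 1867 to 2210 in WT OB and 1587 to 1823 TPM in null OB. Between the BMM groups, 5 of the 8 macrophage markers were lower and 2 higher in null BMM. Their log2 fold changes ran from -2.30 to 1.99 with a median of -0.71. Of all genes tested there, 25.4% were lower and 27% higher. Mir324 itself was not analysed here.

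In WT cells RANK-L raised nearly the whole set. Of 26 genes that passed the filter on low counts, 22 were higher and 3 lower in WT OC than in WT BMM by edgeR's quasi-likelihood test with Benjamini-Hochberg adjustment at 0.05, against 60.5% of all genes tested (30.4% higher and 30.1% lower), and their median log2 fold change was 1.03. In null OC against WT OC, 21 of 25 tested genes were lower and 4 higher, with a median log2 fold change of -1.11, where 65.6% of all genes passed (32.4% higher and 33.1% lower) and the median of all genes was near 0. Both comparisons use the WT OC libraries. In null cells RANK-L moved 9 of 26, 7 up and 2 down, with a median of 0.06 and a background of 12.9% (6.78% up and 6.07% down). The difference between the RANK-L responses of the 2 genotypes was itself tested as an interaction: it passed for 22 of 26 genes, 20 of them negative, meaning a lower response in null cells, against 51.4% of all genes (25.3% positive and 26.1% negative). Lower levels in bulk RNA can come from fewer cells of a type or from less RNA per cell, which cannot be told apart here. The osteoclast marker sum given above moved in the same direction in these groups. Macrophage markers moved too: 8 of 8 were lower in WT OC than in WT BMM (median log2 fold change -2.19), and 6 of 8 were higher and 1 lower in null OC than in WT OC (median 1.65). Osteoblast markers summed to 19.75 to 100.6 TPM in null OC and 2.023 to 3.985 TPM in WT OC, with 3 of 3 tested higher and Sp7 and Bglap at 0 in null OC. Of the 2 neutrophil markers tested, S100a8 was higher in null OC and the other lower, with Elane and Retnlg at 0 in both groups, and Fabp4, the 1 adipocyte marker tested, was higher, with Plin1 and Cfd at 0 in both. The part of these cell type markers in the results was not tested.

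**Figure D1:**
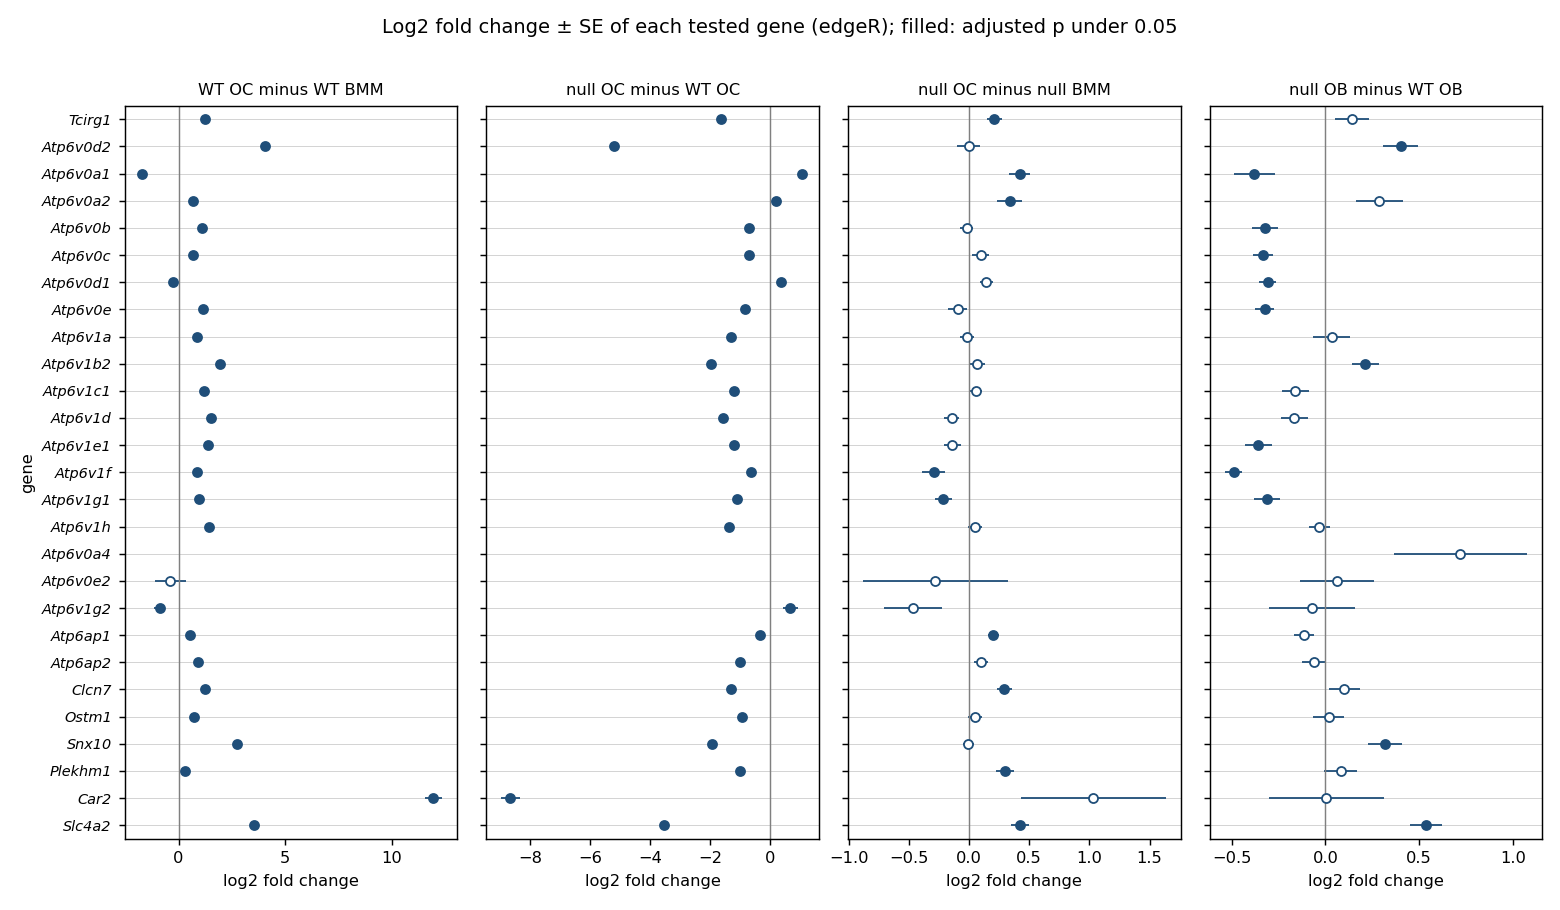
Log2 fold change with its standard error (x axis) of each tested gene (y axis) in 4 comparisons of 6 against 6 libraries, with filled points where the adjusted p was under 0.05. The subunits Atp6v0a1, Atp6v0d1 and Atp6v1g2 lie below 0 in WT OC minus WT BMM, beside Atp6v0e2 which did not pass, and above 0 in null OC minus WT OC, beside Atp6v0a2, while the other V0 and V1 subunits lie on the opposite sides (the x axes differ between panels).

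The osteoclast-associated isoforms were examined first. Atp6v0d2 (chr4:19876841-19922605, GRCm38, minus strand) encodes the d2 subunit of the stalk that joins the ring to V1, and is known for a role in the fusion of osteoclast precursors. Its level in WT BMM ran from 40.07 to 61.06 TPM with a median of 55.96, and in WT OC from 907.8 to 1079 TPM with a median of 963.9. In null BMM it ran from 19.45 to 24.22 TPM with a median of 22.46, and in null OC from 17.65 to 28.56 TPM with a median of 23.17. The null groups thus overlapped each other, and both lay below every WT library of either culture. The log2 fold change of WT OC over WT BMM was 4.05 ± 0.10 (SE, adjusted p = 2.5e-22, edgeR), and that of null OC over null BMM was 0.00 ± 0.09 (adjusted p = 0.991). Null OC was lower than WT OC by a log2 fold change of -5.21 ± 0.10 (adjusted p = 1.4e-16), a 42.6-fold ratio of mean TPM.

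Tcirg1 (chr19:3896050-3907133, minus strand) encodes a3, the a subunit of the ruffled border pump, whose loss is the most frequent known cause of recessive osteopetrosis. Its level was 342.5 to 435.4 TPM (median 381.8) in WT BMM, 195 to 222.8 TPM (median 217.6) in null BMM, 817.5 to 1044 TPM (median 877.8) in WT OC and 223.9 to 269.2 TPM (median 246.3) in null OC. No pair of these 4 groups overlapped. Tcirg1 was therefore abundant before RANK-L, unlike Atp6v0d2. It rose by a log2 fold change of 1.24 ± 0.06 in WT (adjusted p = 1.17e-15, edgeR) and 0.21 ± 0.06 in null cells (adjusted p = 0.0312). Null OC was lower than WT OC by -1.64 ± 0.06 on the log2 scale (adjusted p = 9.68e-13), and null BMM lower than WT BMM by -0.60 ± 0.07 (adjusted p = 1.63e-06). The small rise in null cells was 0.09 (adjusted p = 0.341) with an offset for length and GC content. It did not pass either with limma-voom and quality weights (adjusted p = 0.16), with an offset for the average length of the transcripts used (adjusted p = 0.128), with unfiltered genes (adjusted p = 0.0601) or without null BMM replicate 3 or null OC replicate 3, 4 or 6 (adjusted p from 0.0575 to 0.0769).

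**Figure D2:**
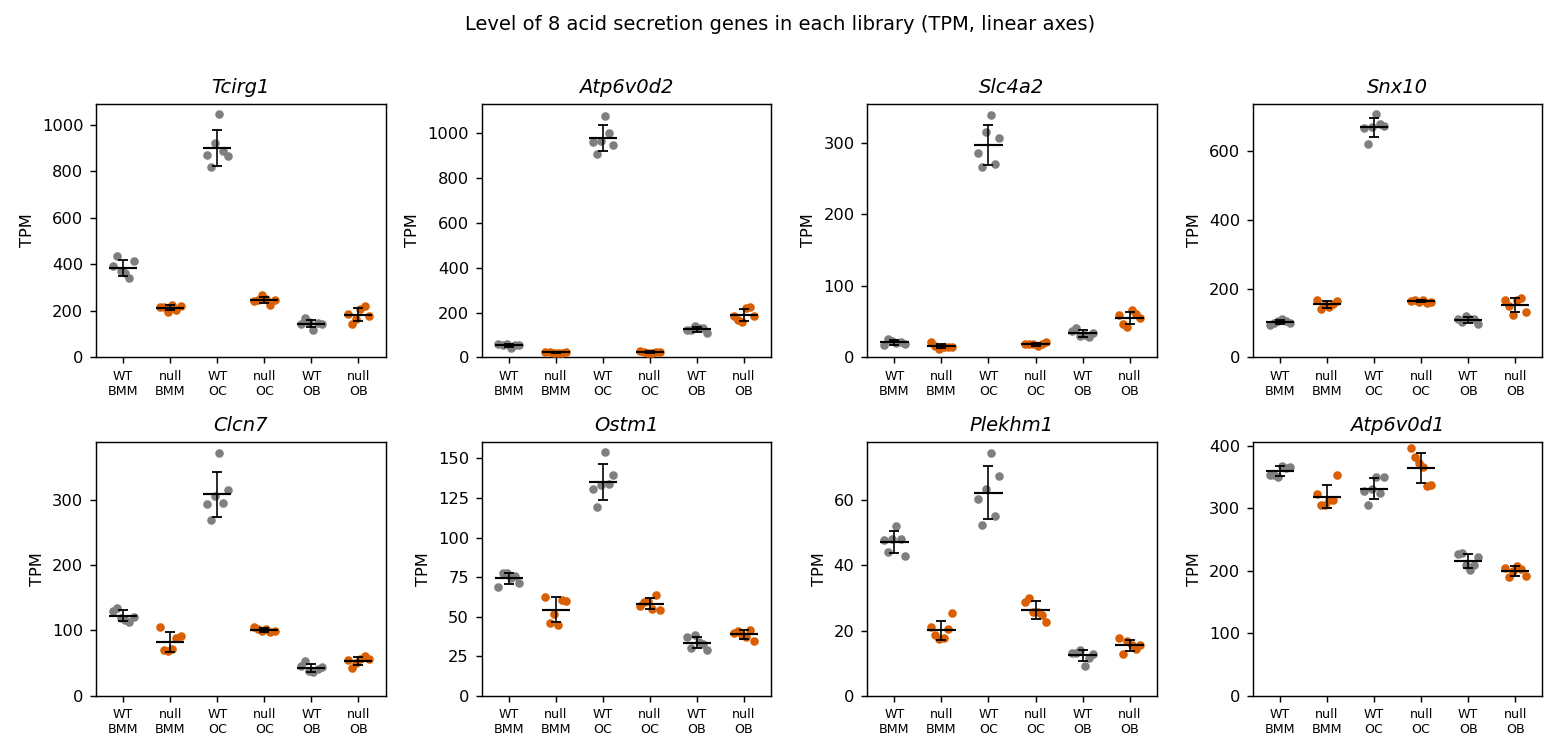
Level in TPM (y axes, linear from 0) of 8 genes in each library (points) of the 6 groups (x axes), grey for WT and orange for null, with bars for the mean ± SD of 6 libraries. WT OC stand above all other groups for the first 7 genes, while Atp6v0d1, the ubiquitous paralog of Atp6v0d2, lies between 304.9 and 395.8 TPM in both OC groups.

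The isoforms and their ubiquitous paralogs occupy the same place in the pump, so the mix was expressed as a share of the summed TPM of each subunit family. Atp6v0d2 made up 13.1% ± 1.71 (SD, n = 6) of Atp6v0d1 plus Atp6v0d2 in WT BMM and 74.7% ± 0.901 in WT OC. In null cells the share was 6.49% ± 0.46 in BMM and 5.92% ± 0.931 in OC. The null OC share was below that of WT OC by -68.8 percentage points, with no overlap (exact permutation test, two-sided, p = 0.002165, the smallest that 924 arrangements allow, adjusted p = 0.003608 over 10 share tests). The same p was found for null against WT BMM and for WT OC against WT BMM. For null OC against null BMM the difference was -0.571 points (exact permutation test, adjusted p = 0.2706).

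Among the a subunits the share of the osteoclast isoform covered a narrower range. Tcirg1 made up 59.5% ± 3.65 (SD, n = 6) of the a subunit transcripts in WT BMM, 88% ± 1.04 in WT OC, 62.7% ± 5.78 in null BMM and 58.4% ± 3.41 in null OC. The null OC share was below the WT OC share by -29.6 percentage points (exact permutation test, adjusted p = 0.003608). For the Tcirg1 share, null BMM differed from WT BMM by 3.11 points, which did not pass (exact permutation test, adjusted p = 0.2944). The other a subunits shifted between these groups: Atp6v0a2 held 3.065 to 4.243% in WT BMM and 6.64 to 11.33% in null BMM, with no overlap, and Atp6v0a1 held 32.84 to 41.21% and 23.54 to 33.5%. Those 2 shares were not tested. The summed a subunit level was 298.2 to 388.8 TPM in null BMM and 615.4 to 679.3 TPM in WT BMM.

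**Figure D3:**
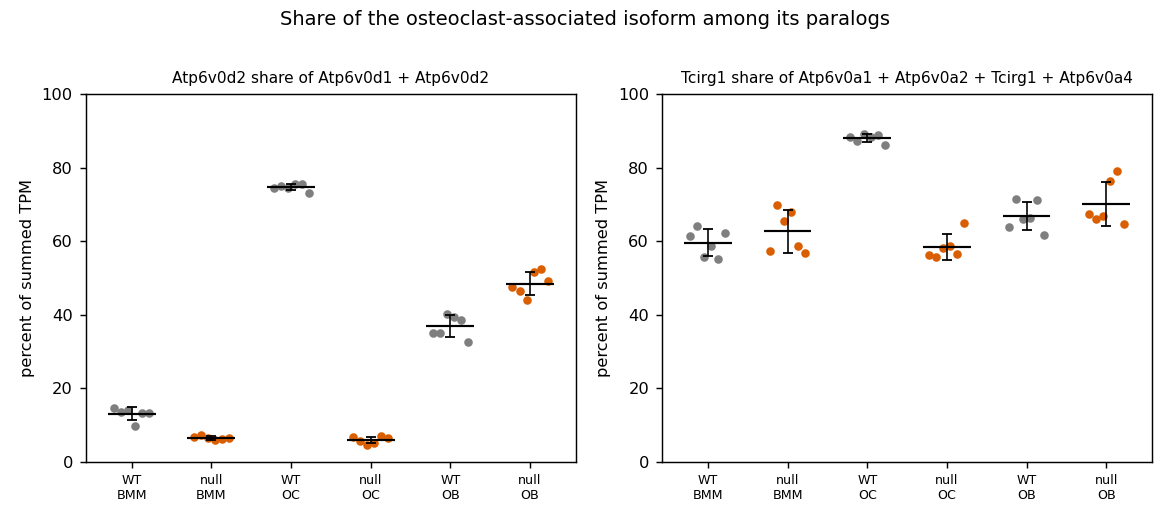
Percent of the family's summed TPM (y axes, 0 to 100) held by Atp6v0d2 and by Tcirg1 in each library (points) of the 6 groups (x axes), grey for WT and orange for null, with bars for the mean ± SD. Atp6v0d2 goes from 13.1% to 74.7% with RANK-L in WT cells and is 5.92% in null OC.

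The 6 partners were all higher in WT OC than in WT BMM and all lower in null OC than in WT OC, with median log2 fold changes of 1.98 and -1.64. Of all genes tested, 30.4% were higher in the first comparison and 33.1% lower in the second. Car2 had the widest range. Car2 (chr3:14886273-14900770, plus strand) encodes carbonic anhydrase 2, which makes protons and bicarbonate from carbon dioxide and water. It was at 0 to 0.1733 TPM in WT BMM, which is 0 to 3 counts per library, and at 219.3 to 249.3 TPM (median 231.4) in WT OC. Against a floor of 3 counts per library, the WT OC level was at least 1640-fold higher. In null BMM it was at 0.04533 to 0.5184 TPM, and in null OC at 0 to 1.239 TPM (median 0.4055), with 26 counts in replicate 1, 19 in replicate 6 and 0 in replicate 3. The null groups overlapped each other and lay far below WT OC. The log2 fold change of null OC against WT OC was -8.65 ± 0.30 (adjusted p = 3.95e-12, edgeR) and that of null OC against null BMM was 1.03 ± 0.60 (adjusted p = 0.258). Car2 passed the filter through the WT OC libraries alone, so its call had to follow, and it was not tested between the BMM groups. The medians of the partners and of the whole set over the WT cultures were 1.98 and 1.03 also with Car2 at its bound.

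Slc4a2 (chr5:24423837-24440950, plus strand) encodes AE2, which trades intracellular bicarbonate for chloride. Its level was 16.67 to 25.16 TPM (median 20.82) in WT BMM, 11.87 to 21.9 TPM (median 14.95) in null BMM, 265.9 to 338.7 TPM (median 296.4) in WT OC and 15.47 to 22.05 TPM (median 18.41) in null OC. Only WT OC stood apart. The log2 fold change was 3.53 ± 0.08 for RANK-L in WT (adjusted p = 3.86e-23, edgeR), 0.42 ± 0.08 in null cells (adjusted p = 0.00175) and -3.55 ± 0.07 for null OC against WT OC (adjusted p = 1.62e-16). The rise in null cells was 0.19 (adjusted p = 0.233) with the average-length offset. Of the 31-base runs of Slc4a2, 14.03% also occur in Fastk, which overlaps it on the opposite strand, and the sources used here do not say whether counting used strand, so its small differences are uncertain.

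Snx10 (chr6:51523901-51590679, plus strand) encodes a sorting nexin of endosomal membranes that is mutated in a known form of osteopetrosis. It was at 94.75 to 111.5 TPM (median 102.4) in WT BMM, 140.3 to 167.1 TPM (median 154) in null BMM, 619 to 706.7 TPM (median 670.3) in WT OC and 157.7 to 167.5 TPM (median 162.4) in null OC. It was the only partner higher in null than in WT BMM, by a log2 fold change of 0.79 ± 0.05 (adjusted p = 4.98e-09, edgeR), with no overlap. With RANK-L it rose by 2.72 ± 0.05 on the log2 scale in WT (adjusted p = 2.34e-25) and the change in null cells was -0.01 ± 0.05 (adjusted p = 0.936). Null OC against WT OC gave -1.95 ± 0.05 (adjusted p = 3.34e-15).

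Clcn7 (chr17:25133391-25162104, plus strand) encodes CLC-7, and Ostm1 (chr10:42583822-42702459, plus strand) encodes the beta subunit without which CLC-7 is unstable. Clcn7 was at 112.5 to 134.8 TPM (median 120.1) in WT BMM, 67.99 to 104.9 TPM (median 79.99) in null BMM, 269.4 to 371.3 TPM (median 300.3) in WT OC and 97.95 to 105.2 TPM (median 100.6) in null OC. Ostm1 was at 68.95 to 77.58, 45.01 to 62.6, 119.5 to 154.1 and 54.3 to 63.37 TPM in the same order, with medians of 75.14, 56.01, 133.5 and 58.13 TPM. For both genes every null library lay below every WT library of the same culture in BMM and in OC. Null OC against WT OC gave a log2 fold change of -1.32 ± 0.06 for Clcn7 (adjusted p = 2.5e-12, edgeR) and -0.94 ± 0.05 for Ostm1 (adjusted p = 1.02e-10). In null cells RANK-L gave 0.29 ± 0.06 for Clcn7 (adjusted p = 0.00516) and 0.05 ± 0.06 for Ostm1 (adjusted p = 0.622).

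The data bear on the start of Clcn7, because the annotation gives it a pair of start sites and the balance of their transcripts differed between cultures. Transcript Clcn7-201 starts at position 25133391 and Clcn7-204 at 25136622, 3231 bases downstream. Clcn7-204 took 42.67 to 51.45% of the gene's TPM in WT BMM and 55.96 to 61.74% in WT OC, and 33.08 to 45.23% in null BMM and 36.83 to 47.9% in null OC. WT OC lay above all libraries of the other 3 groups. The promoters that RefSeq gives for the upstream start (its window begins 250 bases before a start and ends 50 after it) and for a start 9 bases from that of Clcn7-204 are shown, GRCm38.p6, plus strand, 5′ to 3′. Capitals mark CACGTG, the E-box core that MiT family factors such as MITF and TFEB are known to bind, in the first, and TCATGTG, the M-box that MITF is known to bind, in the second.
Clcn7 upstream promoter, chr17:25133141-25133440: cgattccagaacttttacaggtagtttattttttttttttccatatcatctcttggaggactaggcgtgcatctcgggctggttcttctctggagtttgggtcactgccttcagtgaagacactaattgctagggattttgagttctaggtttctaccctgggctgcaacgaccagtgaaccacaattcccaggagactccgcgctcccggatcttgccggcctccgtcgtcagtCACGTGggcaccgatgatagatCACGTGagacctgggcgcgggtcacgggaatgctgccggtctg
Clcn7 downstream promoter, chr17:25136381-25136680: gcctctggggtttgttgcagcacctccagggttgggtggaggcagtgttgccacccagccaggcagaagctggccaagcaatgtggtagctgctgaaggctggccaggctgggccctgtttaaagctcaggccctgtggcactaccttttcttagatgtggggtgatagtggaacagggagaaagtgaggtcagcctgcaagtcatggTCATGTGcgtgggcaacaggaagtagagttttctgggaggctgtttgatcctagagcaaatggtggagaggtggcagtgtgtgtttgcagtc
CACGTG, searched on both strands, which are the same for this palindrome, was in 5 of the 33 RefSeq promoters of the 24 matched genes (15.15%) and in 7.15% of 32851 promoters of the same length. TCATGTG, on either strand, was in 2 of the 33 (6.061%) and in 3.772% of all, and the AP-1 core TGANTCA in 2 of the 33 (6.061%) and in 7.808% of all. These are matches of letters, not sites shown to be bound.

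Transcript shares of Snx10 and Slc4a2 also differed. Snx10-207, which starts 20622 bases downstream of Snx10-201, took 22.73 to 39.25% of the gene's TPM in WT OC, 3.045 to 9.771% in null OC, 6.877 to 10.12% in null BMM and at most 12.48% in WT BMM. Slc4a2-203, which starts 2976 bases downstream of Slc4a2-201, took 36.32 to 42.32% in WT OC, at most 27.98% in null OC, at most 35.39% in null BMM and at most 29.14% in WT BMM. In both genes WT OC lay above the other 3 groups without overlap. In OB cultures the share of Snx10-207 was 25.23 to 39.73% in WT and 20.19 to 35.56% in null, within or near the WT OC range. That of Slc4a2-203 was 15.28 to 37.32% in WT OB and 16.56 to 34.44% in null OB. Its share in WT OB replicate 4, at 37.32%, fell within the WT OC range. The deposited estimates divide reads between transcripts that share most of their exons, so these shares are given as a description with no test.

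**Figure D4:**
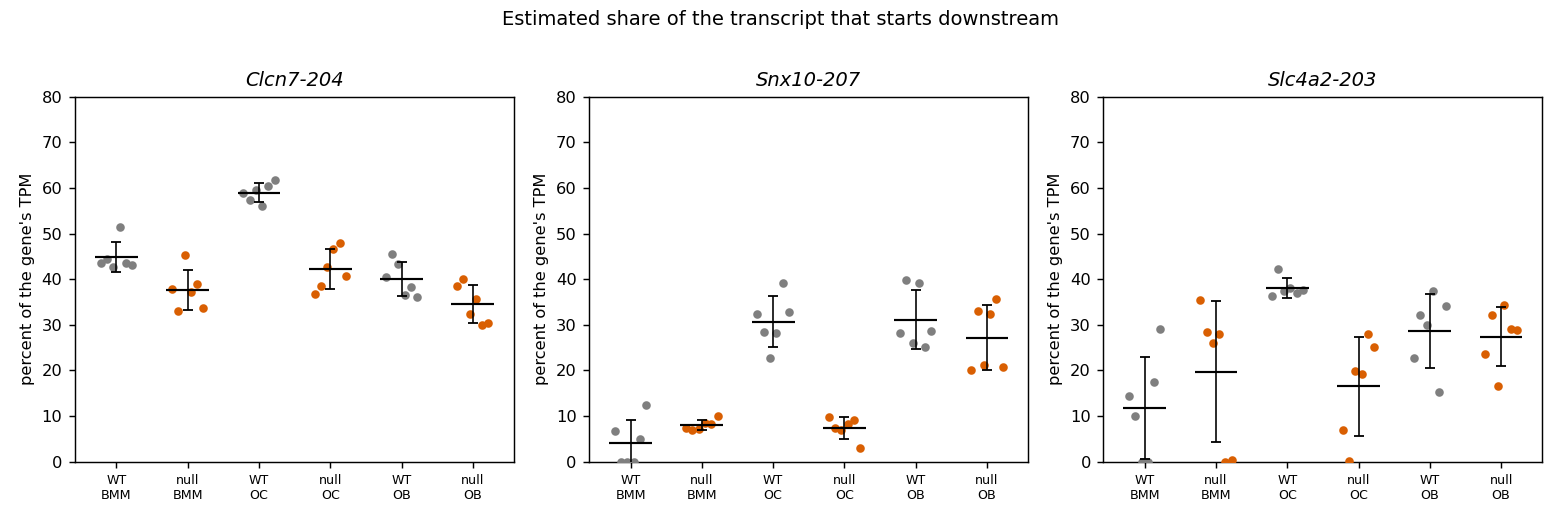
Percent of the gene's TPM (y axes, 0 to 80) given to Clcn7-204, Snx10-207 and Slc4a2-203 in each library (points) of the 6 groups (x axes), grey for WT and orange for null, with bars for the mean ± SD. The WT OC libraries lie above those of WT BMM, null BMM and null OC for all 3 transcripts.

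Plekhm1 (chr11:103364275-103412687, minus strand) encodes an adaptor that joins late endosomes to lysosomes and is known to be needed for the ruffled border. It was at 42.78 to 52.2 TPM (median 47.9) in WT BMM, 17.31 to 25.34 TPM (median 19.6) in null BMM, 52.4 to 74.64 TPM (median 62.06) in WT OC and 22.56 to 29.92 TPM (median 25.8) in null OC. Every WT library of either culture exceeded every null library. The gap between the genotypes was of like size before and after RANK-L, with a log2 fold change of -1.0 ± 0.08 in BMM (adjusted p = 3.27e-08, edgeR) and -1.01 ± 0.07 in OC (adjusted p = 1.6e-09). The interaction was 0.01 ± 0.11 (adjusted p = 0.97), so for Plekhm1 alone among the partners no difference in the RANK-L response passed. When the counts were corrected for length and GC content, the interaction was -0.21 (adjusted p = 0.0494).

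The 14 ubiquitous subunits, which serve endosomes and lysosomes in nearly all cells, took part in the rise. In WT OC 12 were higher than in WT BMM and 2 lower, with a median log2 fold change of 1.03. Of all genes tested there, 30.4% were higher and 30.1% lower. In null OC 11 were lower than in WT OC and 3 higher, with a median of -0.97, where 33.1% of all genes were lower and 32.4% higher. Among them the proteolipids of the ring had the highest levels in WT OC, with Atp6v0c at 3038 to 3446 TPM and Atp6v0b at 2580 to 2775 TPM. In null OC they were at 1516 to 1839 and 1367 to 1507 TPM. Of the 31-base runs of Atp6v0c 35.04% also occur in its pseudogene Atp6v0c-ps2, and of those of Atp6v1g1 23.98% in pseudogene copies, so both are uncertain.

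The 3 ubiquitous subunits with the largest change in null OC against WT OC all belong to V1. Atp6v1b2 (chr8:69088646-69113711, plus strand), the B subunit of the catalytic head, was at 352.1 to 380.7 TPM (median 364.6) in WT BMM, 235.2 to 396.6 TPM (median 292.3) in null BMM, 1384 to 1772 TPM (median 1482) in WT OC and 308.5 to 357.3 TPM (median 323.1) in null OC. Only WT OC stood apart, with a log2 fold change of 1.95 ± 0.07 over WT BMM (adjusted p = 1.33e-19, edgeR) and of -1.98 ± 0.05 for null OC against it (adjusted p = 2.35e-15). Atp6v1d (chr12:78840725-78861638, minus strand), a subunit of the central rotor, was at 197.9 to 222.4 (median 209.4), 202 to 212.7 (median 205.6), 632.7 to 680.1 (median 659.5) and 177.6 to 214 TPM (median 193.6) in the same order. It gave -1.57 ± 0.06 in null OC against WT OC (adjusted p = 8.84e-13). Atp6v1h (chr1:5070018-5162529, plus strand), a regulatory subunit that couples V1 to V0, was at 133 to 157.6 (median 135.6), 108.3 to 150.3 (median 131.4), 397.8 to 433.2 (median 421.2) and 129.1 to 150.9 TPM (median 143.5), and gave -1.38 ± 0.05 (adjusted p = 3.55e-13). For all 3 genes null OC overlapped the BMM groups. In null cells RANK-L gave log2 fold changes of 0.07 ± 0.06, -0.15 ± 0.06 and 0.05 ± 0.06, none of which passed (adjusted p from 0.0957 to 0.602).

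The other V1 subunits that were lower in null OC were the catalytic Atp6v1a (-1.29), the peripheral stalk subunits Atp6v1c1 (-1.22), Atp6v1e1 (-1.22) and Atp6v1g1 (-1.11), and the rotor subunit Atp6v1f (-0.64), all as log2 fold changes with adjusted p from 7.4e-13 to 1.21e-05 (edgeR). The V0 subunits Atp6v0e, Atp6v0b and Atp6v0c gave -0.83, -0.72 and -0.71. For all 11 ubiquitous subunits that were lower, no null OC library reached the TPM range of WT OC. The share of all genes that separate in this way was not computed, and 33.1% of all genes tested were called lower.

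Of the 3 ubiquitous paralogs of the osteoclast isoforms, Atp6v0a1 and Atp6v0d1 went the other way from them in the OC comparisons, while Atp6v0a2 rose with RANK-L in WT as they did. Atp6v0a1, the a1 subunit of lysosomes and synaptic vesicles, was at 223.1 to 266.6 TPM (median 228.6) in WT BMM, 73.09 to 130.2 TPM (median 94.25) in null BMM, 70.82 to 96.09 TPM (median 77.9) in WT OC and 96.58 to 158.3 TPM (median 141.6) in null OC. It fell with RANK-L in WT (log2 fold change -1.73 ± 0.09, adjusted p = 1.72e-15, edgeR) and rose in null cells (0.42 ± 0.09, adjusted p = 0.00515), and the interaction of 2.15 ± 0.13 passed (adjusted p = 6.25e-14). It was thus lower in null than in WT BMM (-1.09 ± 0.10, adjusted p = 1.46e-07) and higher in null than in WT OC (1.05 ± 0.07, adjusted p = 1.59e-09). Atp6v0d1, the d1 subunit, moved little: -0.24 ± 0.05 with RANK-L in WT (adjusted p = 0.000249) and 0.35 ± 0.06 in null against WT OC (adjusted p = 3.21e-05), where the TPM ranges of 304.9 to 350.1 and 335.2 to 395.8 overlapped. Atp6v0a2 was at 20.82 to 28.29 TPM in WT BMM, 37.67 to 43.53 TPM in WT OC and 35.8 to 46.06 TPM in null OC. The WT groups did not overlap, and the rise with RANK-L in WT was 0.68 ± 0.11 on the log2 scale (adjusted p = 4.5e-06, edgeR). Its log2 fold change of 0.18 in null OC against WT OC (adjusted p = 0.027) had a ratio of mean TPM of 0.983, which points the other way, and did not pass in a joint fit of all 36 libraries (adjusted p = 0.208) or without WT OC replicate 2, 4 or 5 or null OC replicate 3 (adjusted p from 0.0501 to 0.062).

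Subunits that rose and a subunit that fell with RANK-L both carry the E-box in their RefSeq promoter, shown here for a proteolipid and for the d1 subunit (GRCm38.p6, minus strand, 5′ to 3′, CACGTG in capitals).
Atp6v0b promoter, chr4:117887280-117887579: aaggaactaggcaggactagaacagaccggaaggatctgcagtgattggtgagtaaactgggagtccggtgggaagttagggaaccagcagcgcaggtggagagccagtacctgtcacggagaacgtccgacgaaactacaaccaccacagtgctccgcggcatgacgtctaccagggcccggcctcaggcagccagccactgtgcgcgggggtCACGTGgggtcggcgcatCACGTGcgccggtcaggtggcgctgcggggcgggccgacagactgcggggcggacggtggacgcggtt
Atp6v0d1 promoter, chr8:105566015-105566314: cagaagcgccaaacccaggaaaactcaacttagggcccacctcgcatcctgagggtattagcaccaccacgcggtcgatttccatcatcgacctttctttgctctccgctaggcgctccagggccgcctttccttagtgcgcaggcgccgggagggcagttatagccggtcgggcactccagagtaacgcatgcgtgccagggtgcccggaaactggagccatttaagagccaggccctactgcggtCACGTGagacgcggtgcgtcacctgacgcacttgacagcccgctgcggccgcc
Atp6v0b holds the letters at 2 places and Atp6v0d1 at 1. In WT OC against WT BMM Atp6v0b gave a log2 fold change of 1.08 ± 0.06 (adjusted p = 1.18e-15, edgeR) where Atp6v0d1 gave -0.24.

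The 2 accessory subunits, which guide assembly and bind the V0 sector, followed the ubiquitous group. Atp6ap1 was at 593.4 to 615.3 TPM in WT BMM, 865.8 to 1043 TPM in WT OC and 611.6 to 673.9 TPM in null OC. Atp6ap2, also known as the prorenin receptor, was at 230.6 to 258.5, 462.6 to 517.7 and 191.9 to 241.4 TPM. Null OC against WT OC gave log2 fold changes of -0.34 ± 0.05 and -1.01 ± 0.06 (adjusted p = 1.13e-05 and 9.77e-11, edgeR).

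The 7 tissue-restricted isoforms, known from kidney intercalated cells, inner ear, testis or brain, were close to absent. Atp6v1e2 was listed at 0 in all 36 libraries. Atp6v1b1, Atp6v1c2 and Atp6v1g3 had group means of at most 0.0287, 0.521 and 0.0638 TPM, and none of these 4 passed the filter in any comparison. Atp6v0a4 was at 0 in all BMM and null OC libraries and at 0.2368 to 1.093 TPM in WT OB and 0.5049 to 1.08 TPM in null OB. Atp6v0e2 was at 2.286 to 5.508 TPM in WT OB and at most 0.9897 TPM in the BMM and OC groups. Atp6v1g2 was at 1.539 to 9.635 TPM across the groups. Its log2 fold change in null OC against WT OC was 0.67 ± 0.26 (adjusted p = 0.0308, edgeR), with overlapping groups, and it did not pass with the average-length offset (adjusted p = 0.0758), with the length plus GC offset (adjusted p = 0.0595) or without WT OC replicate 2, 3, 5 or 6 or null OC replicate 2, 5 or 6 (adjusted p from 0.0511 to 0.0709). Nfkbil1 on the opposite strand shares 23.28% of its 31-base runs.

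Before RANK-L, 15 of 24 tested genes differed between null and WT BMM, 6 higher and 9 lower, with a median log2 fold change of -0.05 and a background of 52.3% (27% higher and 25.4% lower). Lower were both osteoclast isoforms and 4 of the 5 partners tested, with Atp6v0a1 and Plekhm1 at -1.09 and -1.0, and Atp6v1a (-0.41) and Atp6ap2 (-0.18). Slc4a2 (-0.43) did not pass with the average-length offset (adjusted p = 0.0843), nor Atp6ap2 without null BMM replicate 4 or 5 (adjusted p = 0.053 and 0.0548). Higher were 5 ubiquitous subunits, among them Atp6v1f (0.54 ± 0.10, adjusted p = 0.000236, edgeR), Atp6v0a2 (0.53 ± 0.13, adjusted p = 0.0031) and Atp6v0e (0.41 ± 0.07, adjusted p = 6.72e-05), and Snx10. The sum over 10 neutrophil markers was 44.2 to 107 TPM in null BMM and 2.167 to 3.574 TPM in WT BMM. S100a8 gave a mean of 70.2 TPM of it in null BMM. The only other neutrophil marker tested had a log2 fold change of -0.12 and did not pass. S100a9, Elane and Retnlg were at 0 in both groups. Osteoblast markers summed to 18.89 to 47.1 TPM in null BMM and 2.604 to 8.566 TPM in WT BMM. Of 8 macrophage markers, 5 were lower and 2 higher in null BMM, as given above. The part of these markers in the differences was not tested.

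In null cells, the 7 genes that rose with RANK-L were Atp6v0a1, Slc4a2, Atp6v0a2, Plekhm1, Clcn7, Tcirg1 and Atp6ap1, and their log2 fold changes ran from 0.20 to 0.42. Atp6v1f and Atp6v1g1 fell by 0.29 and 0.22 on the log2 scale. Only for Tcirg1 and Atp6ap1 did the TPM of the groups not overlap. The count of 9 fell to 5 without a filter on low counts, with either length offset, and without null BMM replicate 3, null OC replicate 3 or null OC replicate 4. The null OC libraries held 218.2 to 548.6 TPM of osteoclast markers, above the 139.8 to 180.4 TPM of null BMM, and 7 of those 8 markers rose.

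In the OB cultures the differences that passed between genotypes ran from -0.49 to 0.54 on the log2 scale. Of 27 tested genes, 4 were higher and 8 lower in null OB, with a median log2 fold change of -0.03, against 32.5% of all genes tested (15.5% higher and 16.9% lower). Higher were Slc4a2 (0.54 ± 0.09, adjusted p = 0.000329, edgeR), Atp6v0d2 (0.40 ± 0.09, adjusted p = 0.00458), Snx10 (0.32 ± 0.09, adjusted p = 0.0134) and Atp6v1b2 (0.21 ± 0.07, adjusted p = 0.035). Slc4a2 was at 28.57 to 41.24 TPM (median 32.9) in WT OB and 43.12 to 65.84 TPM (median 56.9) in null OB, and Atp6v0d2 at 107.7 to 140.3 (median 126.8) and 156.1 to 223.8 TPM (median 184.3), with no overlap for either gene. Car2 was at 12.83 to 24.32 and 11.43 to 40.3 TPM and Tcirg1 at 119.3 to 168.2 and 142.7 to 221.4 TPM, and neither passed. The share of Atp6v0d2 in the d subunit was 36.8% ± 2.99 (SD, n = 6) in WT OB and 48.5% ± 3.17 in null OB, higher by 11.7 percentage points (exact permutation test, adjusted p = 0.003608). Osteoclast markers were present in both and 3 of 8 were higher in null OB, as given above for their sum. Of 8 macrophage markers 6 were lower in null OB (median log2 fold change -0.46), and of 8 osteoblast markers Col1a1, Col1a2 and Ibsp were higher (0.83, 0.58 and 0.73). The log2 fold changes of the 8 osteoblast markers ran from -0.74 to 0.83 with a median of 0.57, and 0 passed as lower. The 1 adipocyte marker tested, Fabp4, was lower (-0.45). The part of these markers was not tested.

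All 8 genes that were lower in null OB were ubiquitous subunits, and 7 of them have short transcripts of 703 to 1618 bases. Across all 13607 genes tested, the log2 fold change in OB followed transcript length (Spearman's rho = 0.55, a description across genes, which are not independent replicates), whereas rho was 0.01 in OC and -0.2 in BMM. With an offset for length and GC content, 6 of the 12 calls passed. These were Atp6v0d2 (0.41), Slc4a2 (0.41), Snx10 (0.36), Atp6v0a1 (-0.45), Atp6v0d1 (-0.19) and Atp6v1f (-0.16), all as log2 fold changes. The offset for average transcript length follows shifts in transcript use within a gene between libraries, so it cannot remove a trend across genes. With it 11 of the 12 calls passed, and Atp6v0a1 did not (-0.29, adjusted p = 0.13). The trend with length was not corrected apart from GC content. Under the length plus GC offset, Atp6v0b, Atp6v0c, Atp6v0e, Atp6v1e1 and Atp6v1g1 gave -0.06, -0.13, -0.01, -0.15 and -0.09 (adjusted p from 0.127 to 0.907). Atp6v1b2 gave 0.18 (adjusted p = 0.103), and did not pass either without WT OB replicate 2, 4, 5 or 6 or null OB replicate 1 or 5 (adjusted p from 0.0516 to 0.0777).

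**Figure D5:**
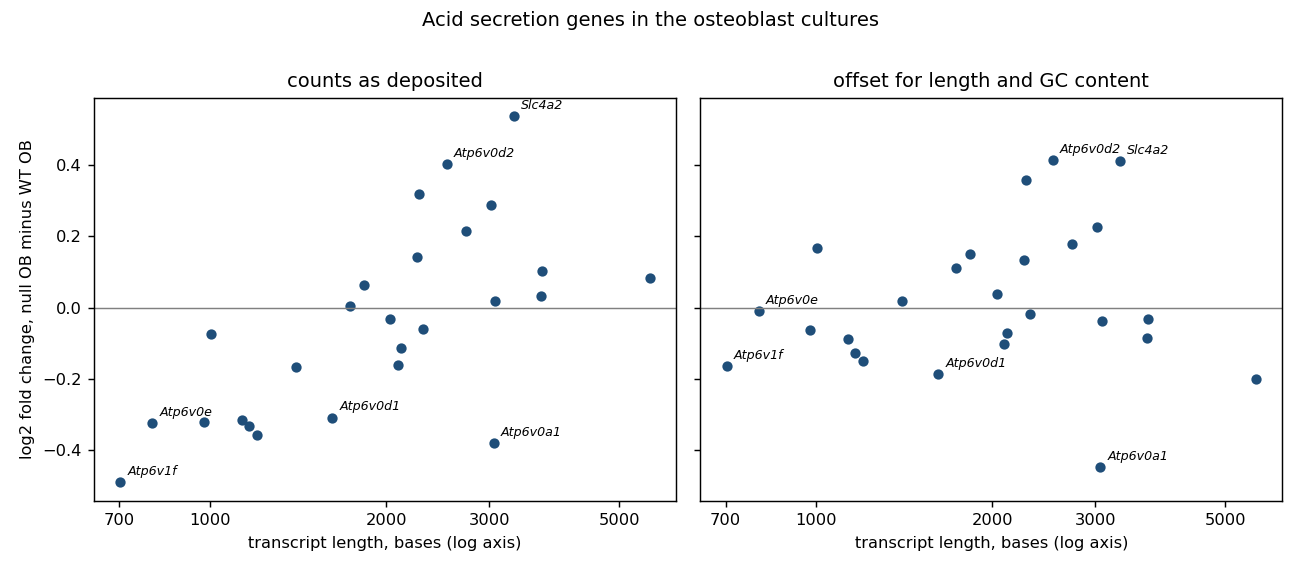
Log2 fold change of null OB minus WT OB (y axes) against transcript length in bases (x axes, log scale) for the tested genes other than Atp6v0a4 (points), from the counts as deposited (left) and with an offset for length and GC content (right). The subunits with short transcripts move toward 0 at the right, Atp6v1f from -0.49 to -0.16, while Atp6v0d2 is at 0.40 and 0.41.

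The genotype effect differed between the bone cultures. The effect in OB minus that in OC passed for 22 of 27 genes, 20 positive and 2 negative, against 55.2% of all genes (27.8% positive and 27.4% negative), and the median was 0.97 on the log2 scale. It was 5.62 ± 0.14 for Atp6v0d2 (adjusted p = 4.33e-27, edgeR) and passed for Car2, whose fitted value of 8.66 rests on 0 to 26 counts in the null OC libraries. The negative ones were Atp6v0a1 (-1.41 ± 0.14, adjusted p = 8.05e-11) and Atp6v0d1 (-0.64 ± 0.07, adjusted p = 3.69e-10). Within WT, 24 of 27 genes were higher and 2 lower in OC than in OB, against 77.9% of all genes (36.7% higher and 41.3% lower). The lower ones were Atp6v0a4 and Atp6v0e2. Atp6v0a4 was at 0 or 1 counts in each WT OC library and passed the filter through the OB groups only, so its call as lower had to follow. Atp6v0e2 was at 1 to 10 counts in the WT OC libraries, with 2 of 6 above 3 counts. It too passed the filter through other groups, so its call as lower is limited in the same way. In WT OB against WT BMM, 6 of 27 were higher and 15 lower, against 76.8% of all genes (41.5% higher and 35.3% lower), and the 6 were Car2, Atp6v0a4, Atp6v0e2, Atp6v0d2, Slc4a2 and Snx10. In WT BMM Atp6v0a4 was at 0 counts in each library and Car2 at 0 to 3, so both passed the filter through other groups only and their calls as higher had to follow. Atp6v0e2 was at 1 to 10 counts in WT BMM, with 2 of 6 libraries above 3 counts, so its call as higher is limited in the same way. Snx10 (0.17 ± 0.06, adjusted p = 0.0171) did not pass with the average-length offset (adjusted p = 0.507) or without WT BMM replicate 2 or WT OB replicate 3 or 4 (adjusted p from 0.0539 to 0.0654).

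Genes around the pump were read from lists of relatives. Of 8 assembly factors and subunits of the RAVE complex, which joins V1 to V0, 5 were lower and 3 higher in null OC than in WT OC, where 65.6% of all genes passed (32.4% higher and 33.1% lower). Dmxl1, a RAVE subunit, gave a log2 fold change of -1.54 ± 0.09 (adjusted p = 1.82e-10, edgeR), and Tmem9 gave 1.5 ± 0.10 (adjusted p = 1.34e-09). Of 5 TLDc proteins, which can release V1 from V0, 4 were tested, 2 lower and 1 higher, a share near that of all genes, with Oxr1 at -1.32 ± 0.10 (adjusted p = 6.38e-09) and Ncoa7 at 0.94 ± 0.09 (adjusted p = 1.3e-07). Many relatives of Car2 and Slc4a2 did not pass the filter on low counts. Of 15 other carbonic anhydrases 6 were tested, 1 lower and 2 higher, or 50% against the same 65.6%. Car3 and Car11 had means of 2.91 and 0.111 TPM in WT OC and 0.653 and 2.3 TPM in null OC. Car11 was thus near 0 in WT OC and passed the filter through the null OC libraries, so its call as higher had to follow. Of 9 other SLC4 transporters 4 were tested and 3 were lower, against 33.1% of all genes. Slc4a7, a sodium-bicarbonate cotransporter, was at 23.38 to 32.07 TPM in WT OC and 9.759 to 15.3 TPM in null OC (log2 fold change -0.81 ± 0.08, adjusted p = 1.44e-07). Of 8 other CLC genes 4 were tested and 0 passed in null OC against WT OC by edgeR, where Clcn6 alone had an unadjusted p under 0.05 (0.0386), while 3 of the 4 were lower in WT OC than in WT BMM, against 30.1% of all genes.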

How the data were processed

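RNA from 36 cultures was sequenced. Per the file headers, the authors deposited for each library the estimated counts and the TPM (length-scaled transcript levels) of 88198 mouse Ensembl transcripts. Kallisto, DESeq2 and the build GRCh38 are named in the submitters' processing notes, although the identifiers are of mouse. Other upstream steps are not given in the sources used here.

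Of the transcripts, 97.5% were matched to GENCODE vM21 (GRCm38) and summed to 30205 genes, and 0.63 to 0.97% of each library's counts stayed unmatched. Depth was 14118972 to 26347581 estimated counts per library, rounded to whole numbers for testing. Genes were filtered with filterByExpr and tested on TMM-scaled counts with edgeR 4.0.16 (R 4.3.3, limma 3.58.1) by robust quasi-likelihood fits over all genes, with Benjamini-Hochberg adjustment at 0.05. Genotype was tested within each culture in a fit of its 12 libraries, while culture effects and interactions used the groups concerned. Shares of subunit families were compared by exact permutation tests on TPM (Python 3.11.15). A floor of 3 counts bounds folds against groups at or under it, and it covers counting error only. The scripts were tested on simulated data.

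The members and lists were chosen with earlier results of these data known. All 31 members are named, with full values for the osteoclast isoforms, the partners and the 3 ubiquitous subunits of largest change in null against WT OC. Genes of other lists are named where past the threshold in that comparison, at most 2 a list, by smallest p; Clcn6 was named after its value was seen. Transcripts are named if leading or at 20% or more in a group. As alternatives the fits were repeated with DESeq2 1.42.0, with limma-voom and quality weights, with RLE scaling, unfiltered, and with genes averaging 10 counts or more. They were also run with replicate numbers as a block, jointly over 36 libraries, and without each library in turn. An offset for average transcript length corrected for shifts in transcript use within a gene. Another offset corrected for trends with length plus GC across genes.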

Additional observations from a re-analysis of the deposited data

Results flagged for a closer look

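In 3 of 153 groups of 6 libraries, 1 library stood apart from the other 5 by Dixon's criterion at 95%, which chance meets in about 1 group of 20. Atp6v0d2 was at 40.07 TPM in WT BMM replicate 4, where the others were at 54.86 to 61.06 TPM. Atp6v1b2 was at 1772 TPM in WT OC replicate 4, where the others were at 1384 to 1488 TPM. Atp6v0a4 was at 1.093 TPM in WT OB replicate 6, where the others were at 0.2368 to 0.5577 TPM, and without that library its log2 fold change in null OB passed (1.149, adjusted p = 0.0114, edgeR). Leaving out those libraries ended no call of Atp6v0d2 or Atp6v1b2.

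The response to RANK-L differed between the genotypes for 22 genes by edgeR's interaction test (log2 fold change in null cells minus that in WT cells). For the osteoclast isoforms it was -1.03 for Tcirg1 and -4.05 for Atp6v0d2. For the partners it was -0.94 for Clcn7, -0.69 for Ostm1, -2.73 for Snx10, -10.93 for Car2 and -3.11 for Slc4a2. The Car2 value is a fitted one and no measured size, since Car2 was at 0 to 3 counts in the WT BMM libraries and its rise in WT, against a floor of 3 counts per library, was at least 1640-fold (10.68 on the log2 scale). For the V0 subunits it was 2.15 for Atp6v0a1, -1.1 for Atp6v0b, -0.59 for Atp6v0c, 0.38 for Atp6v0d1 and -1.23 for Atp6v0e, and for the accessory subunits -0.33 for Atp6ap1 and -0.81 for Atp6ap2. For the V1 subunits it was -0.87 for Atp6v1a, -1.88 for Atp6v1b2, -1.12 for Atp6v1c1, -1.68 for Atp6v1d, -1.51 for Atp6v1e1, -1.16 for Atp6v1f, -1.19 for Atp6v1g1 and -1.39 for Atp6v1h. A positive sign was seen for Atp6v0a1 and Atp6v0d1 alone among these 22.

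The genotype effect in OB differed from that in OC for 22 genes by the same kind of test (log2 fold change of null against WT in OB minus that in OC). For the osteoclast isoforms it was 1.79 for Tcirg1 and 5.62 for Atp6v0d2. For the partners it was 1.43 for Clcn7, 0.98 for Ostm1, 2.29 for Snx10, 1.1 for Plekhm1, 8.66 for Car2, fitted with 0 to 26 counts in the null OC libraries, and 4.1 for Slc4a2. For the V0 subunits it was -1.41 for Atp6v0a1, 0.41 for Atp6v0b, 0.39 for Atp6v0c, -0.64 for Atp6v0d1 and 0.52 for Atp6v0e, and for the accessory subunits 0.25 for Atp6ap1 and 0.96 for Atp6ap2. For the V1 subunits it was 1.34 for Atp6v1a, 2.21 for Atp6v1b2, 1.07 for Atp6v1c1, 1.42 for Atp6v1d, 0.87 for Atp6v1e1, 0.81 for Atp6v1g1 and 1.37 for Atp6v1h. Here Atp6v0a1 and Atp6v0d1 alone were negative.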

How the results depend on the processing

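Replicate numbers are shared between groups, and no clear pairing of same-numbered libraries was seen. Correlations of same-numbered deviations ran from -0.131 to 0.103 and at most 1 of 6 pairs in a comparison was over 0.1. The best match had the same number for 3 of 6 libraries in WT BMM with WT OC. This held for 2 of 6 in WT BMM with WT OB and for at most 1 of 6 in the other comparisons. With the replicate block as sign flips of same-numbered libraries, the Atp6v0d2 share differences of -6.607 (null against WT BMM), -68.76 (null against WT OC), 11.67 (null against WT OB) and 61.58 points (WT OC against WT BMM) and the Tcirg1 differences of -29.61 (null against WT OC) and 28.45 points (WT OC against WT BMM) had an adjusted p of 0.05208, the smallest that these sign flips gave (exact permutation test). In the edgeR fits the replicate block left 24 of 25 calls in null against WT OC, where Atp6v1g2 was lost (adjusted p = 0.078), 12 in OB, where Atp6v1b2 was lost (adjusted p = 0.0512) and Atp6v0a2 gained, and 7 of 9 in null OC against null BMM.

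The count of members called in null against WT OB was 6 under the length plus GC correction, and 6 under that correction joined to the replicate block, against 12. The count in null OC against null BMM was 5 with no filter, 5 with the average-length offset, 5 under the length plus GC correction, and 5 under the latter joined to the replicate block, against 9; leaving out 1 library gave 5 to 10. The cause was not tested. The length plus GC correction reversed the interaction for Plekhm1 (-0.213), and WT OB against WT BMM for Atp6v0e (-0.339, and -0.339 with the replicate block) and Atp6v1g1 (-0.208, and -0.208 with it). Of the other values of single members under the alternatives, 5500 kept their side of the threshold, 94 lost and 41 gained a call. Changes of direction were counted only where a value passed in the main run or in the alternative. All 21 lower calls in null against WT OC held under every alternative run. Genes at under 3 counts a library, such as Car2 in WT BMM, are limited by depth.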

Other observations

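Transcription factors known to act on the acid machinery moved in both directions. Of 6 factors (Mitf, Tfeb, Tfe3, Tfec, Nfatc1 and Spi1), 4 were lower and 2 higher in null OC than in WT OC, where 65.6% of all genes passed (32.4% higher and 33.1% lower). Nfatc1, the factor that RANK-L is known to induce for osteoclast genes, was at 206.9 to 317.7 TPM in WT OC and 15.4 to 28.28 TPM in null OC, a log2 fold change of -3.31 ± 0.15 (adjusted p = 1.84e-11, edgeR). Tfe3, an MiT family factor, gave 0.62 ± 0.07 (adjusted p = 7.34e-07).

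Genes of vesicle traffic to the ruffled border moved in both directions. Of 12 tested, 3 were lower and 7 higher in null OC than in WT OC, against the same 65.6%. Rab38, a small GTPase of lysosome-related organelles, was at 50.54 to 64.98 TPM in WT OC and at most 0.9743 TPM in null OC, while Rab3d, a secretory GTPase, was at 26.91 to 30.8 and 44.92 to 54.73 TPM. Rab38 was at 0 to 14 counts in the null OC libraries and passed the filter through the WT OC libraries alone, so its call as lower had to follow. Rab3d gave a log2 fold change of 0.98 ± 0.05 (adjusted p = 2.91e-11, edgeR). In the OB cultures 1 of the 12 passed and was lower in null OB, against 32.5% of all genes (16.9% lower), and neither Rab38 nor Rab3d did.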
